A study of Mus musculus with 3 samples.

Results

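The interferon regulatory factor (IRF) genes Irf1, Irf2, Irf3, Irf5, Irf7, Irf8 and Irf9 were followed in mouse breast cancer stem cell spheroids, called CSCsp, that had or had not been cultured with splenocytes. They were chosen by name, as 7 of 24402 gene symbols in the transcript tables, and the level of a gene is the sum of the FPKM (fragments per kilobase, a level set against transcript length and library size) of its RefSeq transcripts. CSCsp were grown from 4T1 cells, a triple-negative mammary carcinoma line from Balb/c mice, in low-attachment serum-free culture for 7 days, and spheroids over 40 μm were kept. Splenocytes were taken from female Balb/c mice 28 days after 4T1 cells had been injected into the mammary fat pad at 8 weeks of age. In the library labelled R, CSCsp were co-cultured with such tumor antigen primed splenocytes after their activation had been reinforced with anti-CD3/CD28 beads and IL2. In the library labelled P, the co-cultured splenocytes were tumor antigen primed only, and in the library labelled N there was no co-culture. The spheroids were recovered by straining and washing, and RNA of independent experiments was pooled into 1 library per condition. Differences between libraries therefore have no replicate check and no test between conditions was run.

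The IRF proteins are transcription factors that share a DNA-binding domain and recognise the interferon-stimulated response element (ISRE) and related sequences. Irf3, Irf5 and Irf7 encode latent factors that are phosphorylated downstream of nucleic acid sensors and then switch on type I interferon genes, while Irf9 encodes the DNA-binding subunit of ISGF3, the complex that answers type I interferon. Irf1 is itself a target of interferon-γ through a promoter element called the gamma-activated sequence (GAS), and IRF1 drives genes of antigen presentation, guanylate-binding proteins and chemokines, with IRF2 as its antagonist at many sites. Irf8 is best known from myeloid and B cells, and can also be switched on by interferon-γ.

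Irf1, Irf7 and Irf8 stood far higher in R than in P and N. Their levels were 3.36 to 5.40 times those in the library labelled N and 5.12 to 8.86 times those in the library labelled P. Irf2, the antagonist of Irf1, and Irf3, the constitutive member of the latent factors, stayed within 2-fold in all 3 comparisons. Between the libraries labelled P and N no member was 2-fold apart.

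The 3 libraries held 19178982 fragments in R, 17887652 in P and 17894139 in N, as estimated from aligned bases, and 9881, 9828 and 9825 genes at 1 FPKM or more. The labels of P and N are in doubt. The deposited table of the library labelled N is named for the saline in which primed splenocytes were kept, that of the library labelled P for the absence of treatment, and the arginine metabolism values that accompany the study under N lie nearest to the library labelled P. Libraries are named by their labels, and every direction between P and N depends on them. All 10 epithelial marker genes reached 1 FPKM in each library, with summed levels of 1899 FPKM in R, 2219 FPKM in P and 2516 FPKM in N. Of 10 pan-leukocyte markers 4 reached 1 FPKM in R, 1 in P and 4 in N, with sums of 18.5, 9.11 and 17.5 FPKM. Much of these sums came from Arhgdib, which was within 2-fold, at 11.7 FPKM in R, 7.43 FPKM in P and 9.77 FPKM in N. The other markers at 1 FPKM or more in R and N were far lower in P. Laptm5 was at 1.35 FPKM in R, 0.084 FPKM in P and 1.94 FPKM in N. Coro1a was at 1.59, 0.169 and 1.08 FPKM, and Cd52 at 1.35, 0 and 1.61 FPKM, in the same order.

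The promoters are shown first for the members whose upstream sequence held a motif of the interferon pathway. The 250 bases before each start that the RefSeq promoter table lists for the members (10 starts for the 7 genes, GRCm38.p6, without the downstream start of Irf5) were searched on both strands for the GAS letters TTCNNNGAA and the ISRE letters (GAAA, any 2 bases, GAAA). Irf1 had a GAS match 90 bases before its start (chr11:53769764-53770013, plus strand), Irf8 had GAS matches at 171 and 153 bases (chr8:120736108-120736357, plus strand), and Irf2 had an ISRE match at 241 and a GAS match at 224 bases (chr8:46739495-46739744, plus strand). Capitals mark the matches, which do not overlap each other.
Irf1 promoter: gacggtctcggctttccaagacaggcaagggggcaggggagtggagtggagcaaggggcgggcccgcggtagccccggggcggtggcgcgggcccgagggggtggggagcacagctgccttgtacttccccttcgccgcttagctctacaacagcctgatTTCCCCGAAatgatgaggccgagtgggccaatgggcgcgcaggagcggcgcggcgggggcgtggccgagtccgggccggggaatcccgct
Irf8 promoter: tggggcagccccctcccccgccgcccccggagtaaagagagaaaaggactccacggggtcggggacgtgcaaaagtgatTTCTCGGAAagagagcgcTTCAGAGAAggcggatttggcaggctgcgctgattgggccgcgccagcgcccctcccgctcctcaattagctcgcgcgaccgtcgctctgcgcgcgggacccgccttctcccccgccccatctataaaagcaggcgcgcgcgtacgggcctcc
Irf2 promoter: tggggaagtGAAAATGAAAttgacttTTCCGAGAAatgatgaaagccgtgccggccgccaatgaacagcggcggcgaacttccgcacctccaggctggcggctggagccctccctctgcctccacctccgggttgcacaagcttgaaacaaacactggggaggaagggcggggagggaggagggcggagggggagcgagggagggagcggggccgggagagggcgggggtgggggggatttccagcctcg
Of 32851 mouse promoter windows of this length 7.02% held the GAS letters and 2.98% the ISRE letters. No match lay in the windows of Irf3, Irf5, Irf7 and Irf9 or in the second windows of Irf1, Irf8 and Irf9. Of the members with a match, Irf1 and Irf8 were at least 2-fold higher in R than in P and N, while Irf2 was within 2-fold. Irf7 and, by its RefSeq transcripts, Irf9 were also at least 2-fold higher in R, with neither motif in their windows. The RefSeq start used for Irf7 is not, however, the start of its quantified transcripts. Whether any match acts in these cells was not tested.

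Irf1 (chr11, 53770014 to 53778374, plus strand, in GRCm38 coordinates) was the most abundant member in every library. It reached 261.3 FPKM in R, 51.1 FPKM in P and 77.8 FPKM in N, from 10708, 1952 and 2970 fragments. Exact Poisson intervals, which like all intervals here are at 95% and cover counting error only, ran from 256.3 to 266.3 FPKM in R, 48.8 to 53.4 FPKM in P and 75.0 to 80.6 FPKM in N, and did not overlap. R was 3.36 times N (exact Clopper-Pearson interval 3.23 to 3.50) and 5.12 times P (4.88 to 5.37), and P was 0.657 times N (0.620 to 0.695). Among all genes ranked by level, Irf1 stood at place 174 in R, 873 in P and 570 in N.

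Irf2 (chr8, 46739745 to 46847667, plus strand) was at 23.9 FPKM in R, 14.2 FPKM in P and 18.6 FPKM in N. The order of the libraries was that of Irf1, with a narrower spread. R was 1.29 times N (1.18 to 1.40) and 1.69 times P (1.54 to 1.86). The level of Irf1 per unit of Irf2 was 10.9 in R, 3.61 in P and 4.18 in N. Both levels are per length of transcript, and the ratio speaks of RNA and not of the proteins.

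**Figure D1:**
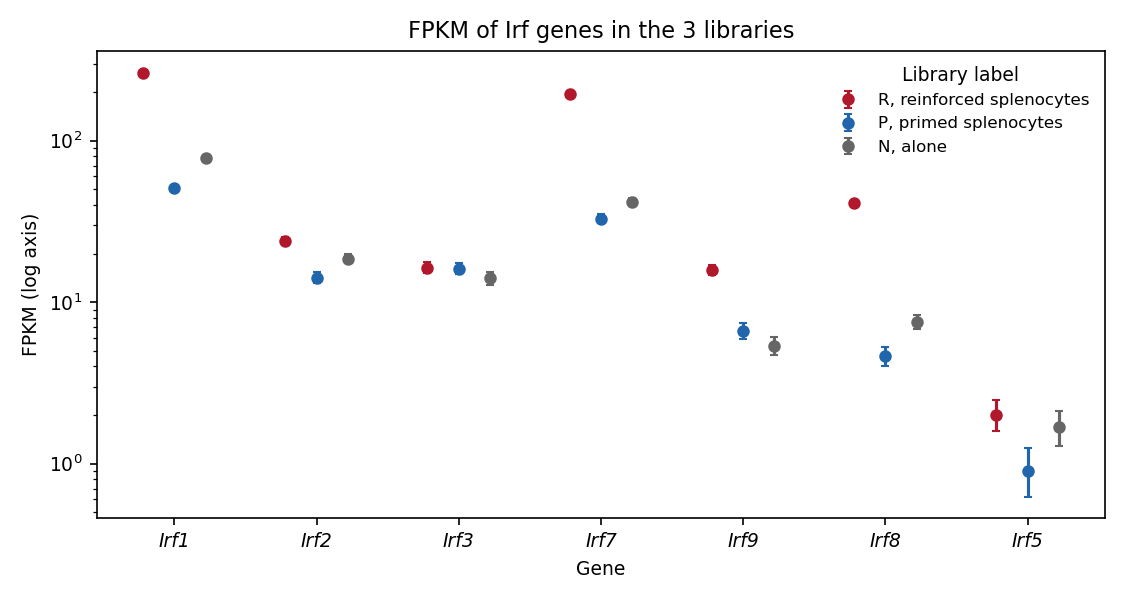
FPKM of the 7 Irf genes on a log axis in the libraries labelled R (red), P (blue) and N (grey), with exact Poisson intervals that cover counting error only (hidden behind the points where narrow). Irf1, Irf7 and Irf8 sit highest in R by a wide gap, while the points of Irf3 lie between 14.0 and 16.4 FPKM.

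Among the latent factors, Irf3 and Irf7 differed in how far the libraries stood apart. Irf3 (chr7, 44997648 to 45002848, plus strand), which is made ahead of any stimulus in most cells, was at 16.4 FPKM in R, 16.1 FPKM in P and 14.0 FPKM in N. Its ratio of R over P was 1.01 (0.906 to 1.14), and that of R over N was 1.17 (1.04 to 1.31). The interval of R over P holds 1 and ends at 1.14, so a larger increase lies outside the counting error, while the error between cultures is unknown. Irf7 (chr7, 141263183 to 141266473, minus strand), whose product amplifies type I interferon, was at 194.9 FPKM in R (190.3 to 199.5), 33.0 FPKM in P (31.0 to 35.0) and 42.0 FPKM in N (39.8 to 44.2). R was 4.64 times N (4.38 to 4.92) and 5.91 times P (5.55 to 6.31). Irf7 RNA exceeded that of Irf3 in all 3 libraries, 11.9 times in R, 2.04 times in P and 2.99 times in N.

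Irf5 (chr6, 29526625 to 29537320, plus strand), which acts downstream of Toll-like receptors and is best known from macrophages, was the lowest member. It was at 2.01 FPKM in R (1.60 to 2.48), 0.897 FPKM in P (0.625 to 1.25) and 1.67 FPKM in N (1.29 to 2.13), from 85, 35 and 66 fragments. The intervals of R and N overlap, while P lies below both. R was 1.20 times N (0.859 to 1.68) and 2.24 times P (1.49 to 3.42), and P was 0.536 times N (0.345 to 0.819). The call for R over P is not stable: the log2 ratio, taken with 0.1 FPKM added to both values, was 1.08 and became 0.66 with 1 FPKM added and 0.81 on the most abundant transcript alone.

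Irf8 (chr8, 120736358 to 120756692, plus strand) had the highest ratio of R over N of the 7 genes. It was at 40.9 FPKM in R (39.3 to 42.7), 4.62 FPKM in P (4.05 to 5.25) and 7.58 FPKM in N (6.84 to 8.37), from 2235, 235 and 386 fragments. R was 5.40 times N (4.85 to 6.04) and 8.86 times P (7.75 to 10.2). Because Irf8 is also a gene of myeloid, dendritic and B cells, the markers of these cells are given beside it. The 11 macrophage and monocyte markers summed to 50.6 FPKM in R, 31.4 FPKM in P and 70.7 FPKM in N, with 4, 2 and 3 of them at 1 FPKM or more. Much of these sums came from Cd68 and Cd14, which were within 2-fold between the libraries. Cd68 was at 19.2 FPKM in R, 18.0 FPKM in P and 21.4 FPKM in N, and Cd14 at 17.1, 12.5 and 18.4 FPKM. Lyz2, the lysozyme of macrophages and neutrophils, was at 6.51 FPKM in R, 0.313 FPKM in P and 28.9 FPKM in N. Mpeg1, a pore-forming protein of macrophages, ran the other way between R and N, at 6.59 FPKM in R, 0 FPKM in P and 0.697 FPKM in N. Spi1, which encodes the partner of IRF8 in myeloid cells, was at 1.29 FPKM in R, 0.042 FPKM in P and 1.21 FPKM in N. Lyz2 thus stood highest in N and Mpeg1 in R, while Irf8 stood highest in R.

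The other leukocyte lists were low. The 9 dendritic cell markers summed to 5.00 FPKM in R, 2.77 FPKM in P and 3.33 FPKM in N, and Clec9a, Siglech and Cd209a were at 0 in every library. The 9 B cell and plasma cell markers summed to 3.59 FPKM in R, 0.405 FPKM in P and 2.25 FPKM in N, with 1, 0 and 1 at 1 FPKM or more and 1, 7 and 0 at 0. The 9 T cell markers found summed to 1.57 FPKM in R, 0.902 FPKM in P and 0.790 FPKM in N, and none reached 1 FPKM. The 10 neutrophil markers found summed to 20.8 FPKM in R, 13.1 FPKM in P and 32.5 FPKM in N. Much of this came from Ltf, which was within 2-fold, at 11.3 FPKM in R, 12.3 FPKM in P and 16.1 FPKM in N. The rest of the list differed more, with 4 of 5 measured markers at least 2-fold lower in P over N and none higher. In R over P 3 of 4 were higher and none lower. All of these were below 1 FPKM in P and passed the minimum only through the other library. S100a8, for instance, was at 5.58 FPKM in R, 0.546 FPKM in P and 8.20 FPKM in N. Ptprc, the defining CD45 gene, was at 0.305 FPKM in R, 0 FPKM in P and 0.201 FPKM in N. The pan-leukocyte, macrophage, B cell, dendritic cell and neutrophil sums were lowest in P. By their RefSeq transcripts all members but Irf3 and Irf9 were lowest in P as well. Irf9 too was lowest in P with all coverage on its exons counted, as given below. The labels of P and N are in doubt, and with them exchanged these sums would be lowest in the library without co-culture. In RNA of a bulk sample, fewer cells of a type and less RNA per cell cannot be told apart. Neither the labels nor the part of leukocytes in the levels of the Irf genes was tested.

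Irf9 (chr14, 55603985 to 55610030, plus strand) was at 15.9 FPKM in R (14.8 to 17.1), 6.66 FPKM in P (5.92 to 7.46) and 5.34 FPKM in N (4.68 to 6.06). R was 2.98 times N (2.58 to 3.47) and 2.39 times P (2.09 to 2.75). These values rest on how reads were shared out within the locus. Irf9 begins 1 base after the end of Rnf31, the catalytic subunit of the linear ubiquitin ligase complex, and 2 assembled transcripts of 29 and 30 exons run from Rnf31 through Irf9 (55591034 to 55610030). They carried 27.0 FPKM in R, 12.8 FPKM in P and 18.4 FPKM in N, more than Irf9 itself in each library.

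With all coverage on the exons of Irf9 counted, whatever its transcript, the gene stood at 47.1 in R, 22.3 in P and 28.8 in N on the same scale. Its own RefSeq transcripts held 31.0% of that coverage in R, 27.6% in P and 17.2% in N. The ratio of R over N was then 1.64 (1.53 to 1.75), short of 2-fold, that of R over P was 2.12 (1.97 to 2.28), and that of P over N was 0.774 (0.714 to 0.839) in place of 1.25 (1.05 to 1.49). Irf9 was thus highest in R by both measures, while its size over N and the order of P and N were set by the sharing of reads. For the other 6 members 83.3% or more of the exon coverage was on their own RefSeq transcripts, and the ratio of R over N by this measure was 3.46 for Irf1, 1.39 for Irf2, 1.16 for Irf3, 1.21 for Irf5, 4.57 for Irf7 and 5.40 for Irf8.

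**Figure D2:**
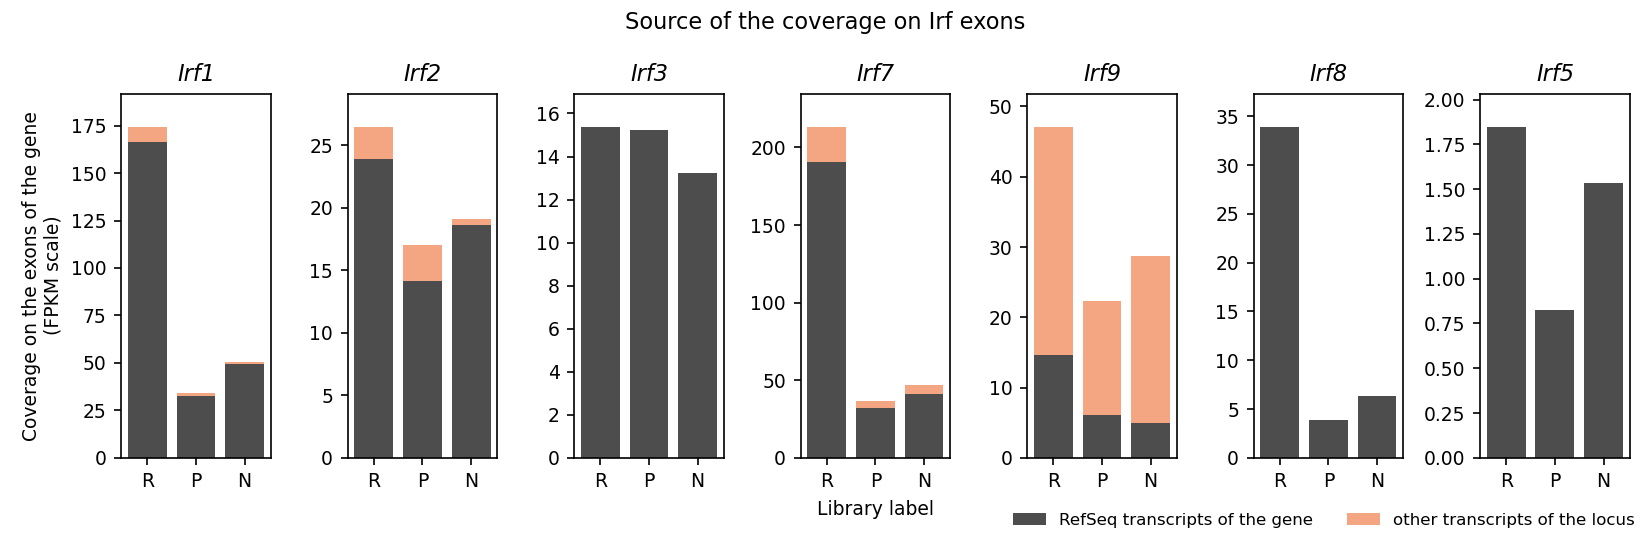
Coverage on the exons of each Irf gene on the FPKM scale (coverage over the aligned bases of the library) in the libraries labelled R, P and N, with its own RefSeq transcripts in dark grey and other transcripts of the locus in orange (each panel has its own axis from 0). Irf9 is the member with most of its coverage on other transcripts, with 31.0% on its own in R, 27.6% in P and 17.2% in N.

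Counted over the family, 4 of 7 members were at least 2-fold higher in R than in N, namely Irf1, Irf7, Irf8 and Irf9, and none was lower. With all coverage on the exons counted, Irf9 dropped out and 3 of 7 were at least 2-fold higher. Among all genes that reached 1 FPKM in one of the libraries compared, 5.17% were that much higher and 3.8% lower. In R over P, Irf5 joined these 4 genes. Of 7 members 5 were higher and none lower, against 6.21% of all genes higher and 3.69% lower. Irf5 was at 0.897 FPKM in P, so it passed the minimum of 1 FPKM in this comparison only through R. In P over N 0 of 7 members were higher and 0 lower, against 2.74% and 3.54% of all genes. The comparisons share libraries (R over N and R over P share R), and their counts are not independent of each other.

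The median log2 ratio of the members was 1.56 in R over N, beside 0.088 over all genes. It was 1.25 in R over P (all genes 0.056) and −0.39 in P over N (all genes 0.021). In both comparisons of R the median member was Irf9. Its log2 ratios became 0.71 in R over N and 1.08 in R over P with all coverage on its exons counted. Of the genes compared in R over N, 10270 in all, Irf8 had place 149 from the top, Irf7 place 180, Irf1 place 248 and Irf9 place 298. In R over P the places among 10292 genes were 152 for Irf8, 192 for Irf7, 213 for Irf1, 497 for Irf9 and 588 for Irf5. The members between P and N spread from a log2 ratio of −0.83 for Irf5 to 0.31 for Irf9, and Irf3 was the other one above 0. All 7 intervals of the ratio of P over N excluded 1, which speaks of counting error alone.

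**Figure D3:**
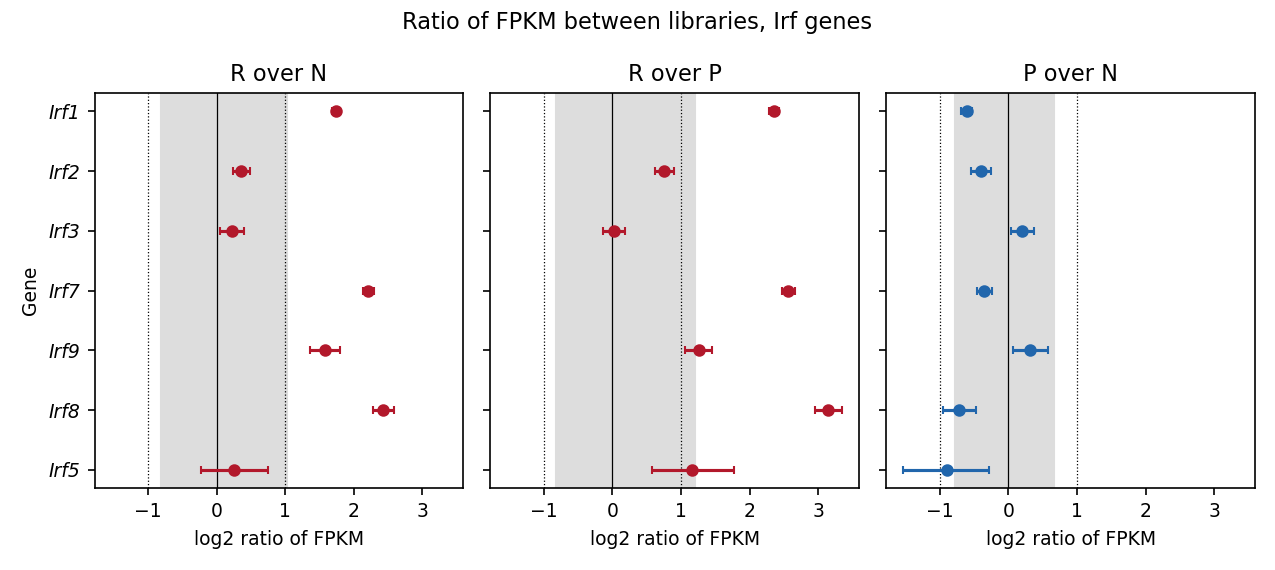
Log2 ratio of FPKM of the 7 Irf genes in the 3 comparisons, without a pseudocount, with exact intervals for counting error, 2-fold lines (dotted) and the range from the 5th to the 95th percentile of all genes (grey). Irf1, Irf7 and Irf8 lie right of the grey range in both comparisons of R, and the members lie within the 2-fold lines for P over N.

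The summed RNA of the family was 555.3 FPKM in R, 126.5 FPKM in P and 166.9 FPKM in N, and its makeup differed. Irf1 held the largest share in each library, at 47.0% in R, 40.4% in P and 46.6% in N. The share of Irf7 was 35.1% in R, 26.1% in P and 25.1% in N, and that of Irf8 was 7.37%, 3.65% and 4.54%. Irf2 and Irf3, which were within 2-fold in all comparisons, held 4.31% and 2.95% in R, 11.2% and 12.8% in P, and 11.1% and 8.39% in N. Another member of the family, Irf4, a factor of activated lymphocytes, was at 0.173 FPKM in R, 0 FPKM in P and 0.081 FPKM in N, from 16, 0 and 7 fragments. Irf4 was thus not detected in P, and a count of 0 does not show that it was absent.

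The transcripts of the members were next compared. For Irf1, NM_008390 carried 97.4% of the level in R, 97.0% in P and 91.8% in N. A second RefSeq transcript from a downstream start (53770473), NM_001159396, was not higher in R than in N, with 5.85 FPKM in R, 1.42 FPKM in P and 6.18 FPKM in N. Irf7 was divided between NM_016850, at 108.5 FPKM in R, 18.6 FPKM in P and 21.3 FPKM in N, and NM_001252601, at 80.5 FPKM in R, 13.3 FPKM in P and 19.0 FPKM in N. The first of these held 55.7% of the gene in R, 56.5% in P and 50.7% in N, so both were highest in R by several fold.

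Irf8 was nearly all NM_008320, at 40.8 FPKM in R, 4.62 FPKM in P and 7.49 FPKM in N. Irf3 was mostly NM_016849, at 13.5 FPKM in R, 12.4 FPKM in P and 10.8 FPKM in N, and a non-coding transcript, NR_045611, added 2.85 FPKM in R, 3.69 FPKM in P and 3.23 FPKM in N. For Irf5 the 2 transcripts differed in their order of libraries. NM_012057 was at 1.44 FPKM in R, 0.781 FPKM in P and 1.67 FPKM in N, while NM_001252382, which starts downstream, was at 0.562 FPKM in R, 0.117 FPKM in P and 0 FPKM in N. Irf9 was led by NM_008394, at 10.6 FPKM in R, 4.65 FPKM in P and 2.96 FPKM in N. The division of reads among overlapping transcripts is an estimate of the assembler, and its error is not covered by the intervals.

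**Figure D4:**
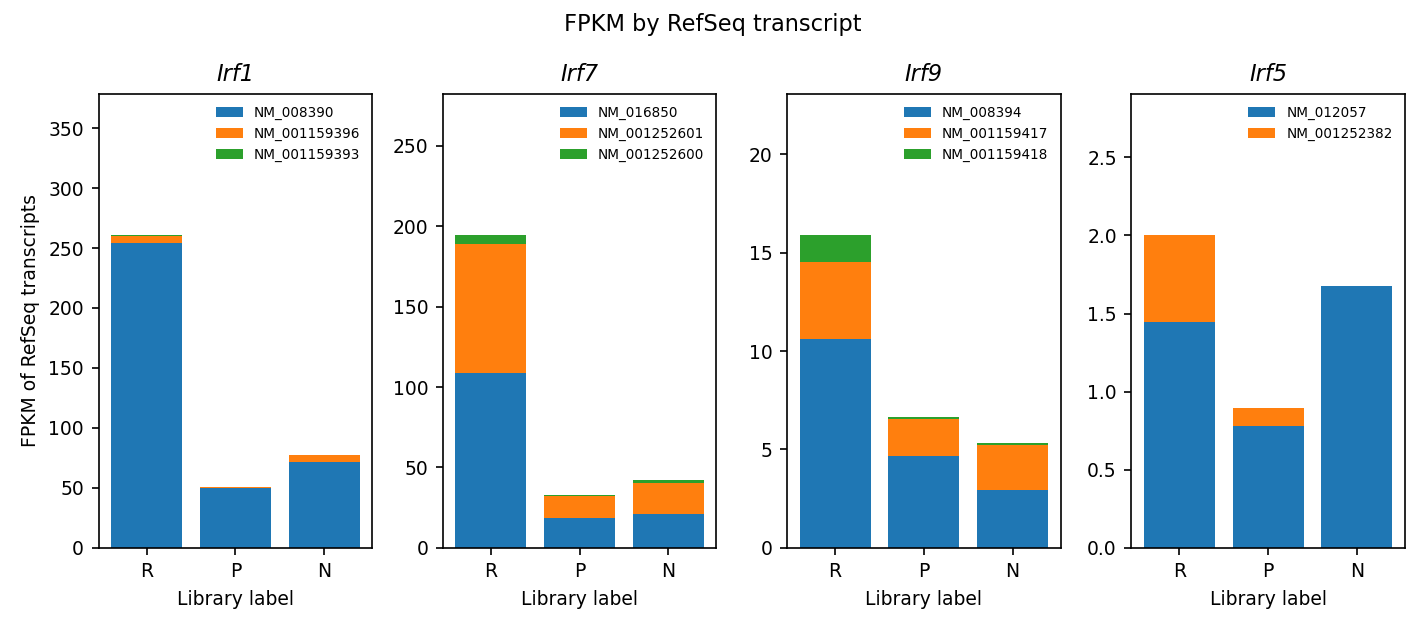
FPKM of each RefSeq transcript of Irf1, Irf7, Irf9 and Irf5, stacked, in the libraries labelled R, P and N (each panel has its own axis from 0). NM_008390 makes up nearly all of Irf1, whereas Irf7 is divided between NM_016850 and NM_001252601 in all 3 libraries.

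The genes around the IRF proteins were then counted, in lists ordered from ligand to target. None of 10 interferon ligand genes reached 1 FPKM in any library. Ifng, the gene of interferon-γ, was at 0 FPKM in all 3 libraries, and Ifnb1 was at 0 FPKM in R, 0 FPKM in P and 0.470 FPKM in N. Of 6 interferon receptor genes 5 were measured at 1 FPKM or more, and none was 2-fold apart in R over N (median log2 ratio 0.00044). Ifnar2, a chain of the type I receptor, was at 23.2 FPKM in R, 10.2 FPKM in P and 11.9 FPKM in N, and was the one receptor 2-fold higher in R over P. Ifngr1, the ligand-binding chain of the interferon-γ receptor, was at 19.5 FPKM in R, 20.5 FPKM in P and 21.9 FPKM in N.

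Stat2, like Irf9 a subunit of ISGF3, was at 7.71 FPKM in R, 0.673 FPKM in P and 1.84 FPKM in N. The Janus kinase genes Jak1, Jak2 and Tyk2 and the related factor gene Stat3 were within 2-fold, with ratios of R over N of 1.03 for Jak1, 0.974 for Jak2, 1.18 for Tyk2 and 1.07 for Stat3. Among 18 measured sensors, adaptors and kinases upstream of IRF proteins 3 were higher in R over N and none lower (median 0.35), and the same 3 were higher in R over P. They were Ifih1, the RNA sensor MDA5, Dhx58, its regulator LGP2, and Tlr3, the receptor for double-stranded RNA. Tlr3 was at 6.76 FPKM in R, 0.494 FPKM in P and 1.72 FPKM in N. In R over P it passed the minimum of 1 FPKM only through R. Tbk1, a kinase that activates IRF3, was at 16.0 FPKM in R, 13.5 FPKM in P and 13.7 FPKM in N.

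Of 11 measured partners and inhibitors of the pathway 3 were higher in R over N, 4 were higher and 1 lower in R over P, and the medians were 0.23 and 0.019. Spi1 was among the genes higher in R over P, where it passed the minimum of 1 FPKM only through R. Batf2, a partner of IRF1, was at 18.2 FPKM in R, 0.515 FPKM in P and 0.721 FPKM in N, and its locus is shared with another gene. It passed the minimum of 1 FPKM only through R. Socs1, an inhibitor of Janus kinases, was at 25.7 FPKM in R, 1.84 FPKM in P and 4.36 FPKM in N. Usp18, an inhibitor of the type I receptor, was at 55.8 FPKM in R, 16.5 FPKM in P and 21.7 FPKM in N. Socs1 and Usp18 were thus highest in R, while Socs3, an inhibitor related to Socs1, was the gene lower in R over P, at 4.43 FPKM in R, 11.5 FPKM in P and 3.49 FPKM in N.

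Genes known as targets of ISGF3 and of IRF1 were the lists with the most members apart. Of 19 measured ISGF3 targets 16 were higher and 1 lower in R over N (median 1.65), and 18 were higher in R over P (median 2.07). Ifit3 was at 105.2 FPKM in R, 11.6 FPKM in P and 20.2 FPKM in N, and Oas2, an enzyme that activates RNase L, was at 5.32 FPKM in R, 0.882 FPKM in P and 0.756 FPKM in N. Oas2 passed the minimum of 1 FPKM only through R, so R had to be the higher library, by an amount that the minimum did not set. The gene lower in R over N was Ifit1, an antiviral RNA-binding protein, with 4.25 FPKM in R, 1.23 FPKM in P and 12.1 FPKM in N. Within 2-fold were Mx2, an antiviral GTPase, at 9.56 FPKM in R, 6.14 FPKM in P and 12.3 FPKM in N, and Rtp4, with R over N at 1.88.

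All 19 measured IRF1 targets were higher in R over N (median 2.71) and in R over P (median 3.73). Ciita and Ido1 passed the minimum of 1 FPKM only through R in R over N, as did these and Nlrc5 in R over P. For them R had to be the higher library, by an amount that the minimum did not set. In P over N the median was −0.67 and 5 of 17 were lower. Gbp2, a guanylate-binding protein whose locus is shared with another gene, was at 492.4 FPKM in R, 12.6 FPKM in P and 24.5 FPKM in N, and Iigp1, an immunity-related GTPase, at 69.7 FPKM in R, 1.43 FPKM in P and 2.33 FPKM in N. Ciita, the master regulator of MHC class II genes, was at 8.69 FPKM in R, 0.256 FPKM in P and 0.320 FPKM in N. Many targets in both lists answer more than 1 factor, the lists were drawn up with earlier results of these data known, and their medians do not tell which IRF protein acted.

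**Figure D5:**
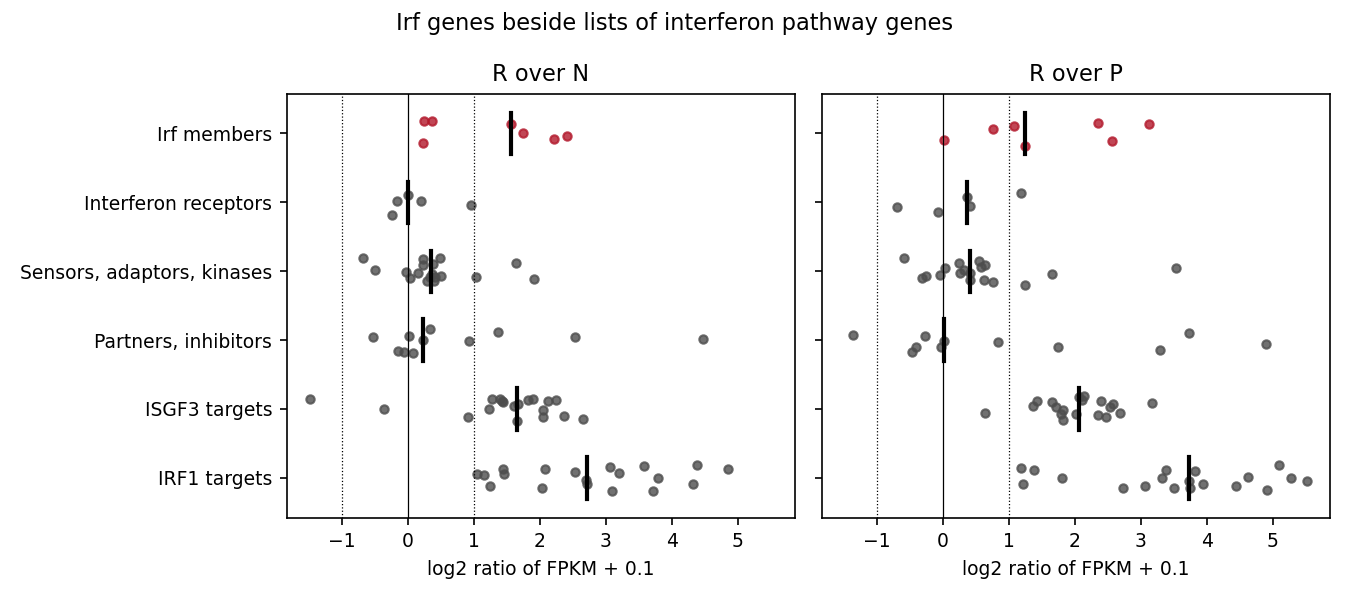
Log2 ratio of FPKM + 0.1 in R over N (left) and R over P (right), 1 point per gene, for the 7 Irf genes (red) and 5 lists of pathway genes (grey), with the median as a bar and 2-fold lines dotted. The medians for R over N run from 0.00044 for receptors to 2.71 for IRF1 targets, with the Irf genes at 1.56. The median of the Irf genes is the value of Irf9, which depends on how reads were shared out within its locus.

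The genes whose pattern over the 3 libraries was most like that of a member were found by the distance between centred log2 values, among 6791 genes that reached 5 FPKM in some library. Nearest to Irf1 were Oas3 (distance 0.067), H2-T24 (0.076) and Tmem140 (0.083). Nearest to Irf7 were Phf11d (0.075), Ifit3b (0.089) and Ifi44 (0.13), and nearest to Irf8 were Ifit3 (0.070), Il15ra (0.10) and Psmb9 (0.13). Nearest to Irf9 were Fbxw17 (0.086), Pnpt1 (0.092) and Aida (0.15), by the sum of its RefSeq transcripts, whose order of P and N turned with all exon coverage counted. Oas3, for instance, was at 55.6 FPKM in R, 10.8 FPKM in P and 15.6 FPKM in N. Between members, Irf1 and Irf7 lay 0.33 apart, Irf7 and Irf8 0.40, and Irf1 and Irf8 0.59. With 3 libraries such a likeness rests on 3 points, and it is a description only.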

How the data were processed

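RNA of 4T1 CSCsp was sequenced in 3 libraries, 1 per condition, named by the treatment label. The authors aligned reads with HISAT2 (2.2.0) and quantified RefSeq and assembled transcripts with StringTie (2.1.3 in the submitters' processing notes, 2.1.5 in the file headers). Per transcript, the deposited files hold coverage, FPKM and TPM in one attribute field of mixed text. The deposited FPKM equals coverage divided by all aligned bases. The notes name mm9, while 99.3% of 23188 symbols overlap their GRCm38 gene, so coordinates are given as GRCm38.

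FPKM was summed over the RefSeq transcripts of a gene. The plan had assembled transcripts in the sum and RefSeq alone as the alternative. The order was exchanged to follow the rule that defines the members. Fragments were estimated as aligned bases over 300 bases per read pair. Intervals are exact Poisson (FPKM) and exact Clopper-Pearson (ratios) at 95%, and cover counting error only. Ratios for counts and medians are log2 with a pseudocount of 0.1 FPKM. A gene counts as apart at 2-fold or more where one of the libraries compared reaches 1 FPKM, and a list median covers the genes that reach 1 FPKM in one of the libraries compared. No test between conditions was run.

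All members are named, with up to 4 genes per list by the largest log2 ratio of R over N in either direction, and 3 nearest genes per member. Of these, examples are given, some genes of the lists are not reported here, and the text also names others picked after their values were seen (Ifng, Ifnb1, Socs3, Tbk1, Ifit1, Ptprc, Spi1, Clec9a, Jak1, Jak2, Mx2, Rtp4, Ido1, Nlrc5, Siglech and Cd209a). Members and lists were chosen with earlier results of these data known. Promoters come from RefSeq (GRCm38.p6), and all 7 members matched. Alternatives changed the pseudocount, unit, scaling, transcripts, filter and labels. Coverage on exons was added after seeing the data. Scripts used Python 3.11.15 with pandas 2.3.3, NumPy 2.4.6, Matplotlib 3.10.9 and SciPy 1.17.1.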

Additional observations from a re-analysis of the deposited data

Results flagged for a closer look

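The assembled transcripts that run from Rnf31 into Irf9 are outside the sum of RefSeq transcripts on which the comparisons rest, and they hold signal in every library. Their summed level was 27.0 FPKM in R, 12.8 FPKM in P and 18.4 FPKM in N. Whether they stand for read-through RNA or for neighbouring genes joined during assembly was not tested.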

How the results depend on the processing

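With 1 library per condition, no replicate could be left out. No paired analysis was possible because each condition has 1 library. No ratio of a member that was 2-fold apart changed direction. Irf1, Irf7 and Irf8 stayed at least 2-fold higher in R over both other libraries under every alternative run for members. For Irf9 the log2 ratio of R over N became 0.71 with all coverage on its exons counted, and its ratio of P over N became 0.774. For Irf5 in R over P, a pseudocount of 1 FPKM gave a log2 ratio of 0.66 and the most abundant transcript alone gave 0.81. With the labels of N and P exchanged, the log2 ratio of Irf5 was 1.08 in R over N, and it was 0.25 in R over P. The exchange turns the sign of P over N for all 7 members by construction. With the most abundant transcript alone its P over N was −1.01, so that 1 member was lower in P over N. The cause of these shifts was not tested beyond the construction of each alternative.

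The counts over all genes (531 higher and 390 lower in R over N, 639 and 380 in R over P, 279 and 361 in P over N) moved more than those of members. With a pseudocount of 1 FPKM, 230 genes were lower in R over N, 219 were lower in R over P, and 156 were higher and 228 lower in P over N. With TPM, 802 genes were higher and 594 lower in R over N, 644 were lower in R over P, and 524 were higher and 575 lower in P over N. With assembled transcripts added, 238 genes were lower in R over N, 216 were lower in R over P, and 85 were higher and 204 lower in P over N. Without a filter the counts were 948 and 872 in R over N, 1171 and 854 in R over P, and 664 and 893 in P over N. With a minimum of 5 FPKM they were 291 and 134, 360 and 146, and 88 and 123. Rescaled libraries gave 496 and 417, 600 and 411, and 275 and 372.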
